A study of Mus musculus with 48 samples.

Results

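Chemokines are small secreted proteins that guide migrating leukocytes through G-protein-coupled receptors, and osteopontin is a secreted phosphoprotein of bone matrix and inflamed tissue that also acts as a cytokine. The 6 genes described here are 5 CC chemokine genes, Ccl2, Ccl3, Ccl4, Ccl5 and Ccl9, and Spp1, which encodes osteopontin. They were chosen by name, as CCL2, CCL3, CCL4, CCL5, CCL9 and SPP1, from 21025 gene models in all 30 RNA libraries of the series. The mean RPKM was to decide between models of the same name, but each name matched 1 model. The genes were picked with earlier results of these libraries known, so their differences are descriptions of these libraries and not independent evidence.

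In the bone marrow, B-cell precursors grow among stromal cells that hold them with chemokines, chiefly Cxcl12. Ccl2 binds Ccr2 and draws monocytes out of the marrow. Ccl3 and Ccl4 are the macrophage inflammatory proteins, and Ccl3, Ccl5 and Ccl9 bind Ccr1. Osteopontin binds integrins and Cd44, and in the marrow it is made by osteoblasts and macrophages. Mature activated B and T cells are known to secrete Ccl3, Ccl4 and Ccl5.

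Ikaros, the product of Ikzf1, is a zinc finger protein that regulates transcription in lymphocyte precursors. Ikaros-deleted pro-B cells carried Ikzf1(fl/-) Cd79a(Cre/+), and their controls carried Ikzf1(fl/+) Cd79a(Cre/+), so both carry a floxed allele and the Cre recombinase, which is driven by the B-lineage gene Cd79a. This pair of genotypes was profiled in c-Kit-high pro-B cells, in pro-B cells that also lacked Rag2, Rag2(-/-) on both sides, and in pro-B cells without a further label. There were 2 libraries of each. Another 2 came from pre-B cells of wild-type mice. Pre-pro-B cells lacking Ebf1, Ebf1(-/-) on all sides, carried the Ikzf1 hairpin Ik4056, the Ikzf1 hairpin Ik2709, the control hairpin Ren713 or an empty vector, in 4 libraries each. Where their controls are set against pro-B controls, stage cannot be told apart from the loss of Ebf1, the constructs or the library numbers. All mice were of strain C57BL/6. The sources used here do not give how the cells were isolated, or whether libraries of a group came from separate animals or cultures. The p-values therefore cover the spread between libraries alone, and that spread may be technical.

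Values are RPKM, read numbers scaled to the length of the gene model and the depth of the library. The depth implied by the steps between low values ran from 2.31 M mapped reads, in c-Kit-high control replicate 2, to 36.2 M. It was 26.9 to 33.9 M in Rag2-null libraries, against 10.2 to 12.4 M in Rag2-intact pro-B libraries without a further label. Their library numbers lie apart too, so between these cells Rag2 cannot be told apart from depth or library numbers. Ikzf1 itself had 45.3 and 48.9 RPKM in deleted pro-B cells, against 56.4 to 59.2 RPKM in their controls. It had 64.5 and 86.0 RPKM in deleted c-Kit-high cells, against 101.3 and 123.8 RPKM in controls. In Rag2-null cells it had 36.7 and 39.9 RPKM after deletion, against 56.2 and 62.3 RPKM in controls. A level over the whole gene model cannot show the loss of a floxed exon, so these values check the genotypes little. With the Ikzf1 hairpins the range was 23.7 to 60.6 RPKM, against 106.1 to 145.3 RPKM with both control constructs, and pre-B cells had 308.8 and 343.5 RPKM. The summed level of 10 B-lineage markers was 3753 to 6843 RPKM in pro-B and pre-B libraries, with no marker at 0, but 57.9 to 135.4 RPKM in Ebf1-null cells, which lack a factor that this list itself holds.

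The RefSeq promoter table held 3 of the 6 genes, Spp1, Ccl3 and Ccl9. Their sequences are printed because Spp1 and Ccl3 rose together after Ikaros deletion and Ccl9 rose with the hairpins. Each is the 250 bases before the annotated start, 5′ to 3′ on the gene's own strand, in build GRCm38.p6: Spp1 at chr5:104434861-104435110 (plus strand, the more upstream of 2 starts), Ccl3 at chr11:83649379-83649628 (minus strand) and Ccl9 at chr11:83578637-83578886 (minus strand). Capitals mark matches on either strand to TGTGGT, a Runx motif, TGANTCA, an AP-1 motif, or TGGGAA, a strict form of the Ikaros motif.
Spp1: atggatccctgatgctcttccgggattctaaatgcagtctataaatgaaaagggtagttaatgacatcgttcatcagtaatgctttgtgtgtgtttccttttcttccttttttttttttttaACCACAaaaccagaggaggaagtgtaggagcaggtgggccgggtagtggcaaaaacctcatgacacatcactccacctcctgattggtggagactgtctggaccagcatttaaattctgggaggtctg
Ccl3: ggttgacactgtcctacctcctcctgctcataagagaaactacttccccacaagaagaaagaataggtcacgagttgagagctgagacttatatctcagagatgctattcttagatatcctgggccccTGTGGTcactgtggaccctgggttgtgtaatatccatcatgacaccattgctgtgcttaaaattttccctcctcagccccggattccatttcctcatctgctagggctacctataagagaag
Ccl9: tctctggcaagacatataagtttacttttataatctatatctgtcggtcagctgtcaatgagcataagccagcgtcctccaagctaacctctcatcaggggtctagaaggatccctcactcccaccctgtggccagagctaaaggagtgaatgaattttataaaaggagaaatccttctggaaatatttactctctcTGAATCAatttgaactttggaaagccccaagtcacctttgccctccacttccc

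The Spp1 and Ccl3 windows each held 1 Runx motif, 128 and 122 bases before the start, and neither held an AP-1 motif. The Ccl9 window held 1 AP-1 motif, 53 bases before the start, and no Runx motif. None of the 3 windows held TGGGAA, and shorter forms of the Ikaros motif were not searched. Over 32851 promoter windows of the same length, 14.05% held the Runx motif, 6.75% the AP-1 motif and 21.6% TGGGAA. The Ets motif GGAAGT, not capitalised above, had 1 match in each window and was present in 19.7% of all windows. A kappaB motif had a match in the Ccl9 window alone of these 3, and in 7.25% of all windows. These are matches of letters and say nothing of binding.

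Loss of Ikaros was compared with its control in 4 settings to ask how these secreted factors follow Ikaros at successive early B-cell stages. A gene is said to rise or fall where limma, on log2(RPKM + 1) and fitted over all tested genes, gave a Benjamini-Hochberg adjusted p under 0.05. In deleted pro-B cells 4 of the 6 genes were called, 3 higher and 1 lower, where 23.4% of 11937 tested genes were called, 13.5% higher and 9.89% lower. In deleted c-Kit-high cells 2 of 6 rose and 0 fell, against 17.2% of tested genes called, 11.6% higher and 5.60% lower. In deleted Rag2-null cells 3 of 6 rose and 1 fell, against 22.3% called, 15.5% higher and 6.84% lower. With the hairpins 3 of the 5 genes that could be tested rose and 0 fell, against 19.4% of 10744 tested genes called, 13.4% higher and 6.04% lower. Of these 3, Ccl4 passed the filter only through the hairpin libraries. The hairpin and control libraries form runs of consecutive library numbers, which this fit did not use. With the run as a block, Spp1 was called higher as well, and 5575 of all tested genes were called, against 2086 without it. The share of 19.4% thus does not apply to the fit with the block. The median log2 difference over the genes tested was 1.28 after deletion in pro-B cells, 0.28 in c-Kit-high cells, 0.79 in Rag2-null cells and 1.28 with the hairpins, where the medians over all tested genes were 0.03, 0.03, 0.06 and 0.01. Since the genes were chosen with these results known, the counts describe the set and carry no weight of their own.

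**Figure D1:**
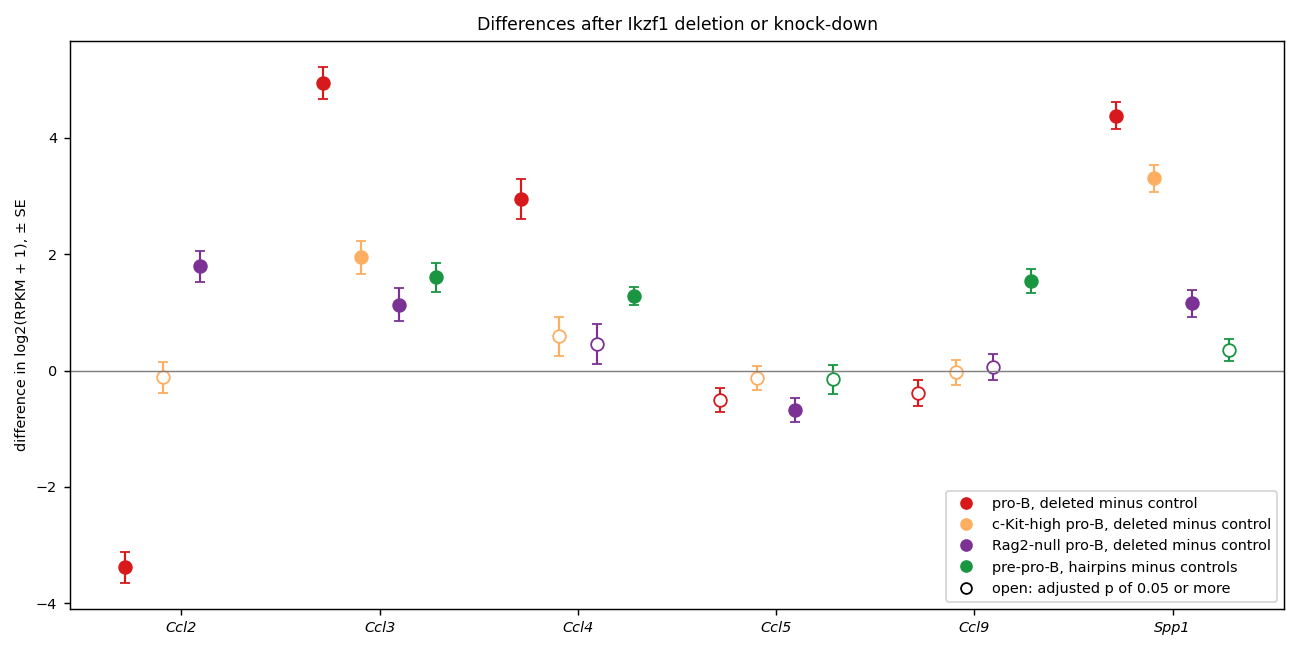
Differences in log2(RPKM + 1) for each gene, as deleted minus control libraries in 3 kinds of pro-B cell and as Ikzf1 hairpins minus control constructs in pre-pro-B cells; bars are standard errors and open points did not reach an adjusted p under 0.05. Spp1 and Ccl3 lie above 0 in all 4 settings, and Ccl2 lies at -3.38 in pro-B cells but at 1.79 in Rag2-null cells.

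Spp1 had the highest mean of the 6 genes over all 30 libraries, though not in every group, and rose in all 3 deletions. Deleted pro-B libraries had 419 and 455 RPKM of Spp1, against 14.8 and 27.2 RPKM in their controls. The groups lay far apart, although the control libraries differed among themselves. Groups without overlap were the case for 64.9% of tested genes in this contrast. The log2 difference was 4.38 ± 0.23 (SE; adjusted p = 1.55e-07), and the ratio of the group means was 20.8. Deleted c-Kit-high libraries had 44.3 and 47.6 RPKM, against 3.83 and 3.66 RPKM in controls, a log2 difference of 3.30 ± 0.23 (SE; adjusted p = 1.47e-06). Deleted Rag2-null libraries had 12.01 and 14.7 RPKM, against 4.38 and 6.65 RPKM in controls, a log2 difference of 1.15 ± 0.23 (SE; adjusted p = 0.00352). In bulk RNA, more cells with the transcript and more of it in each cell cannot be told apart.

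With the hairpins, Spp1 differed little. Its levels were 3.84, 5.13, 3.66 and 5.54 RPKM with Ik4056 and 4.30, 6.41, 4.43 and 8.04 RPKM with Ik2709, against 4.72, 3.85, 2.49 and 4.63 RPKM with Ren713 and 3.64, 3.95, 1.66 and 6.16 RPKM with the empty vector. The groups overlapped, and the log2 difference was 0.36 ± 0.19 (SE; limma adjusted p = 0.225). The libraries form 4 runs of consecutive library numbers, each with all 4 constructs, and with the run as a block the same difference passed the test (adjusted p = 0.00605). Within runs, Spp1 was above both control constructs in 3 of 4 runs with Ik2709 and in 2 of 4 with Ik4056, and in the other runs it lay between them.

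Spp1 was lower in each other kind of control cell than in pro-B controls. Against pro-B controls, its log2 difference was -2.15 ± 0.23 in c-Kit-high controls (SE; limma adjusted p = 2.10e-05) and -1.72 ± 0.23 in Rag2-null controls (SE; adjusted p = 2.52e-04). Pre-pro-B control constructs, at a mean of 3.89 ± 1.38 RPKM (SD, n = 8), lay below pro-B controls at 21.0 ± 8.77 RPKM (SD, n = 2), with an adjusted p of 4.30e-07 from limma over all 30 libraries. Pre-B cells had the lowest level, 1.803 and 1.97 RPKM, against 3.83 and 3.66 RPKM in c-Kit-high controls. The stromal and osteoblast markers, of 6 tested, fell in the same contrasts with pro-B controls: 5 in c-Kit-high, 4 in Rag2-null and 6 in pre-pro-B controls, with 0 higher in each and median log2 differences of -2.75, -1.86 and -2.49; their part in the level of Spp1 was not tested. In these contrasts 50.8%, 31.6% and 55.5% of all tested genes were called, with 23.0%, 20.7% and 30.1% lower. The pre-B difference of -0.72 ± 0.23 (SE; limma adjusted p = 0.0216) was lost in 8 of 10 alternatives, among them each of the 4 fits that left out 1 library (adjusted p = 0.0659 to 0.0984). Ordered by mean, deleted pro-B, deleted c-Kit-high, control pro-B and deleted Rag2-null cells did not overlap with their neighbours, while from Ik2709 down to c-Kit-high controls every neighbouring pair overlapped.

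**Figure D2:**
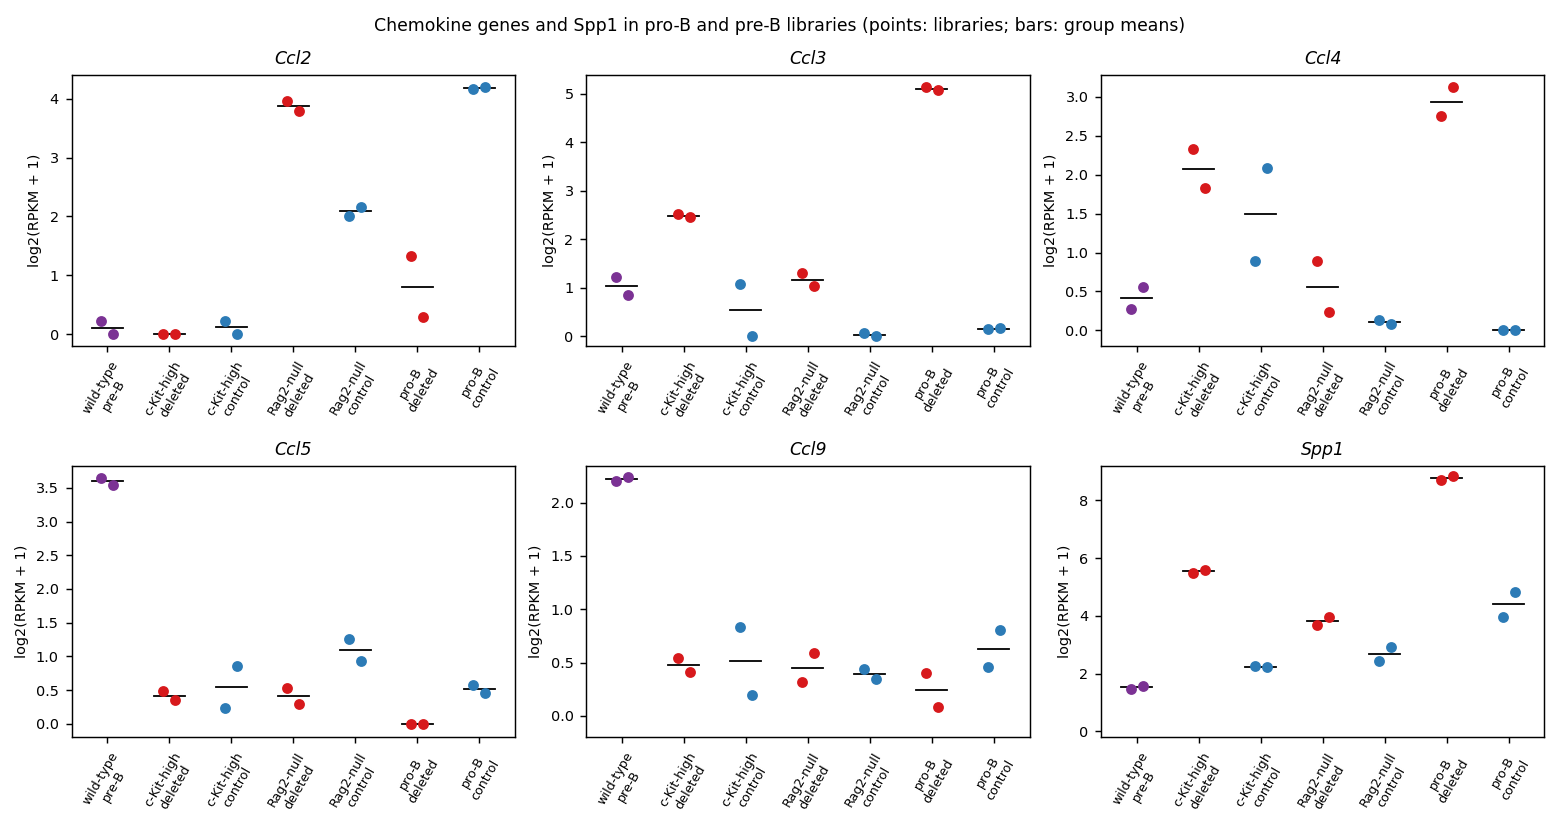
Level of each gene in the 14 pro-B and pre-B libraries, as log2(RPKM + 1); each point is a library, bars are means of 2 libraries, and deleted cells stand left of their controls. Spp1 reaches 419 and 455 RPKM and Ccl3 34.1 and 32.6 RPKM in deleted pro-B libraries, whereas Ccl5 and Ccl9 are highest in pre-B libraries.

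Ccl3, an inflammatory chemokine that binds Ccr1, rose in every setting in which Ikaros was removed or reduced. Deleted pro-B libraries had 34.1 and 32.6 RPKM of Ccl3, about 335 and 291 reads, against 0.11 and 0.12 RPKM in controls, which is 1 read in each. This is a log2 difference of 4.94 ± 0.28 (SE; limma adjusted p = 2.50e-07). Deleted c-Kit-high libraries had 4.71 and 4.503 RPKM, against 1.118 RPKM in control replicate 1 and 0 RPKM in control replicate 2, where 3 reads would amount to 1.64 RPKM. The log2 difference was 1.95 ± 0.28 (SE; adjusted p = 3.70e-04), and 1.38 ± 0.25 (SE; adjusted p = 0.0083) between the 2 libraries with consecutive numbers, deleted replicate 2 and control replicate 1, each assumed to vary like the other groups.

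In Rag2-null cells Ccl3 was low on both sides. It had 1.46 and 1.04 RPKM after deletion, about 39 and 28 reads, against 0.04 RPKM (1 read) and 0 RPKM in controls. The log2 difference of 1.13 ± 0.28 (SE; limma adjusted p = 0.0119) was lost in 4 of 10 alternatives. These were the fits without deleted replicate 1 (adjusted p = 0.0900), without control replicate 2 (0.0574), without a filter on low values (0.0669) and over all 30 libraries (0.0893).

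In pre-pro-B cells Ccl3 was present without any hairpin to Ikzf1 and rose further with one. Levels were 28.4, 11.3, 10.2 and 13.3 RPKM with Ik4056 and 10.9, 7.204, 5.72 and 13.3 RPKM with Ik2709, against 4.61, 1.70, 3.31 and 1.93 RPKM with Ren713 and 5.58, 1.91, 4.70 and 2.58 RPKM with the empty vector. The hairpin libraries all lay above the control libraries, by a narrow margin between 5.72 and 5.58 RPKM that came from different runs. Such a lack of overlap, in either direction, held for 7.06% of tested genes. In each of the 4 runs both hairpins were above both control constructs. The log2 difference was 1.60 ± 0.25 (SE; limma adjusted p = 1.97e-04), with 1.93 ± 0.30 (SE) for Ik4056 alone and 1.27 ± 0.30 (SE) for Ik2709 alone. The difference between the hairpins was 0.66 ± 0.35 (SE) and did not pass the test (adjusted p = 0.565). Control pre-pro-B cells, at 3.288 ± 1.502 RPKM (SD, n = 8), had more Ccl3 than control pro-B cells at 0.116 ± 0.010 RPKM (SD, n = 2), with a limma adjusted p of 1.01e-04.

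Pre-B cells had 1.34 and 0.80 RPKM of Ccl3, against 1.118 and 0 RPKM in c-Kit-high controls, with overlap (limma adjusted p = 0.166); without control replicate 1 the log2 difference was 1.04 (adjusted p = 0.00221). C-Kit-high and total pro-B controls also overlapped (adjusted p = 0.271), but without c-Kit-high control replicate 2 the log2 difference was 0.92 (adjusted p = 0.00535). Rag2-null against intact controls did not pass the test (adjusted p = 0.778). Ordered by mean, deleted pro-B cells came first, then Ik4056, Ik2709, deleted c-Kit-high cells and the control constructs; overlapping neighbours among these were Ik4056 with Ik2709, deleted c-Kit-high cells with the empty vector, and the empty vector with Ren713.

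**Figure D3:**
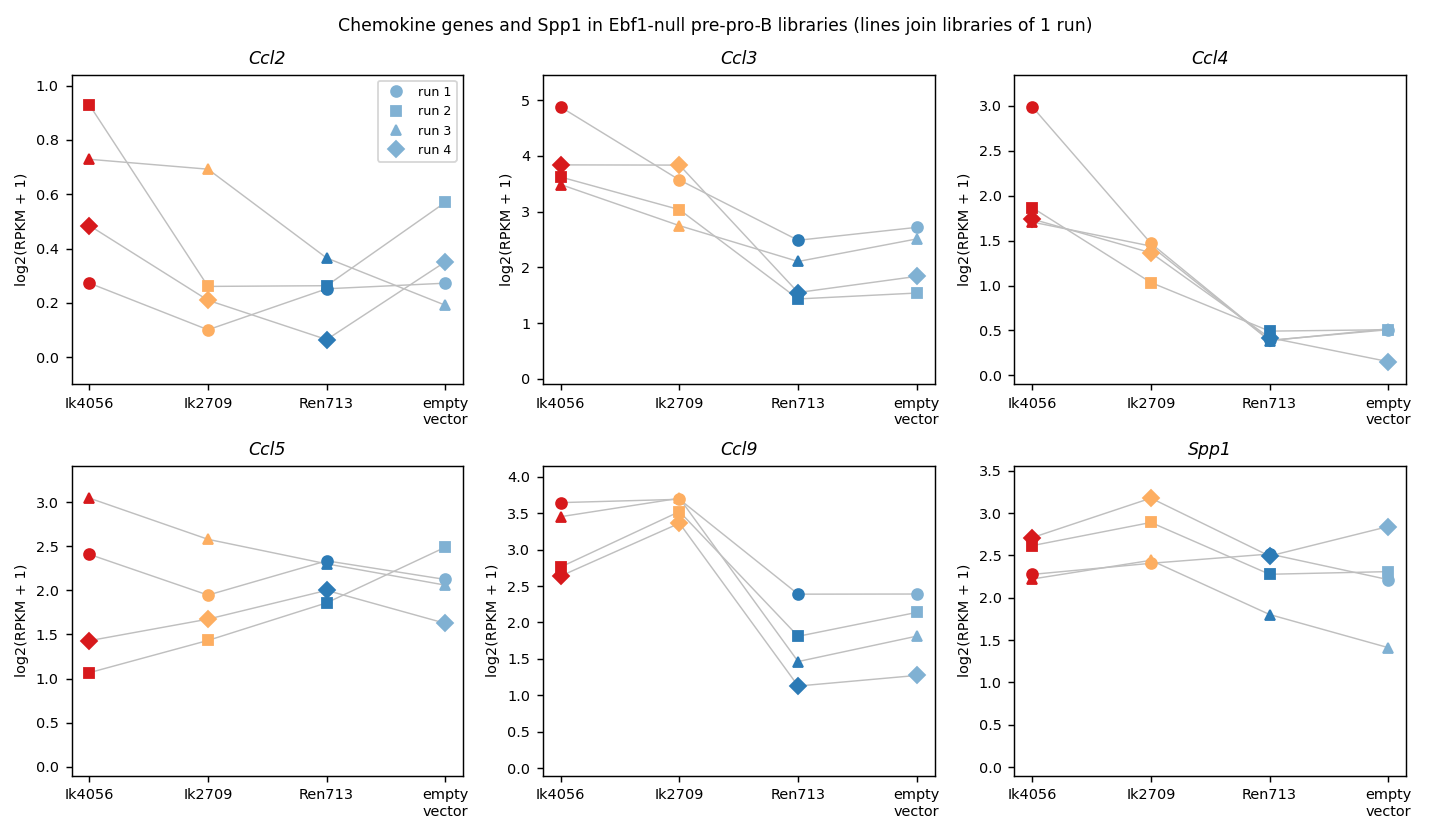
Level of each gene in the 16 Ebf1-null pre-pro-B libraries, as log2(RPKM + 1), with both Ikzf1 hairpins left of both control constructs; marker shapes and grey lines show libraries of the same run of library numbers. Ccl3, Ccl4 and Ccl9 are above both control constructs in 4 of 4 runs with either hairpin, and Ccl5 and Spp1 overlap.

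Ccl4, which lies next to Ccl3 on chromosome 11, rose in deleted pro-B cells and with the hairpins. Deleted pro-B libraries had 5.73 and 7.76 RPKM of Ccl4, about 47 and 58 reads, and both controls were listed at 0, where 3 reads would be 0.39 and 0.44 RPKM. On the log2 scale they differed by 2.94 ± 0.34 (SE; limma adjusted p = 6.00e-05). Deleted c-Kit-high libraries had 4.03 and 2.54 RPKM, against 0.86 and 3.26 RPKM in controls. These overlapped, since the shallow control replicate 2 reached 3.26 RPKM on 5 reads, and the log2 difference of 0.59 ± 0.34 (SE) did not pass the test (adjusted p = 0.284). Without that library it was 1.18 with an adjusted p of 0.0247. Rag2-null cells had 0.85 and 0.18 RPKM after deletion, against 0.10 and 0.06 RPKM in controls, and the log2 difference of 0.45 ± 0.34 (SE) did not pass (adjusted p = 0.402).

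The hairpins raised Ccl4 as well. Levels were 6.94, 2.65, 2.26 and 2.34 RPKM with Ik4056 and 1.77, 1.05, 1.71 and 1.57 RPKM with Ik2709, against 0.31, 0.41, 0.31 and 0.34 RPKM with Ren713 and 0.42, 0.42, 0.43 and 0.11 RPKM with the empty vector. No hairpin library overlapped with a control library, as was so for 7.06% of tested genes. Ccl4 entered this fit only through the hairpin libraries, the groups in which it was high. Its call held in all 25 alternatives, among them a fit without the filter. The rise was 1.28 ± 0.16 on the log2 scale (SE; limma adjusted p = 2.28e-05). Every Ik4056 library was above every Ik2709 library, by 0.75 ± 0.22 on the log2 scale (SE). Such a lack of overlap between the hairpins, in either direction, held for 7.17% of tested genes. The limma adjusted p was 0.0962 in the fit without a block and 0.0110 with the library run as a block. Without the block limma called 0 of the 5 testable genes between the hairpins, and 1, Ccl4, had an unadjusted p under 0.05; of all tested genes it called 3.33%, 2.62% higher with Ik4056 and 0.707% lower. Between Ren713 and the empty vector limma called 0 of the 5 genes, with 0 at an unadjusted p under 0.05, as it called 0.00% of all tested genes.

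Since RPKM is per kilobase, levels of Ccl3 and Ccl4 can be set side by side. The ratio of Ccl3 to Ccl4 was 5.96 and 4.19 in deleted pro-B libraries, and 1.17 and 1.77 in deleted c-Kit-high libraries. With Ik4056 it ran from 4.09 to 5.70 and with Ik2709 from 3.34 to 8.44, against 4.18 to 14.8 with Ren713 and 4.52 to 23.0 with the empty vector, where Ccl4 rests on 2 to 10 reads a library. Across libraries, log2 levels of the pair had a Pearson r of 0.83 over the 14 pro-B and pre-B libraries and of 0.90 over the 16 pre-pro-B libraries; libraries of a group share genotype, and those of a run share consecutive library numbers. Control pre-pro-B cells, at 0.344 ± 0.107 RPKM (SD, n = 8), did not pass the test against control pro-B cells for Ccl4 (adjusted p = 0.192), but did with a pseudocount of 0.1 RPKM (6.25e-04). Among controls, Ccl4 was higher in c-Kit-high cells at 0.86 and 3.26 RPKM than in pro-B cells, listed at 0 (log2 difference 1.49 ± 0.34, SE; limma adjusted p = 0.00330), and by 0.89 without c-Kit-high control replicate 2. Pre-B cells had 0.21 and 0.47 RPKM, against the same c-Kit-high controls, a log2 difference of -1.08 ± 0.34 (SE; adjusted p = 0.0202) that was -1.68 without c-Kit-high control replicate 1 and lost without c-Kit-high control replicate 2 (-0.48, adjusted p = 0.225) and without pre-B replicate 1 (0.120).

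Ccl2, the monocyte chemoattractant that binds Ccr2, moved in opposite directions in pro-B cells with and without Rag2. Deleted pro-B libraries had 1.498 and 0.22 RPKM of Ccl2, about 15 and 2 reads, against 17.0 and 17.4 RPKM in controls, about 159 and 144 reads. Ccl2 fell by 3.38 ± 0.27 on the log2 scale (SE; limma adjusted p = 2.88e-06). Deleted Rag2-null libraries had 14.6 and 12.9 RPKM, against 3.02 and 3.50 RPKM in controls, a rise of 1.79 ± 0.27 (SE; adjusted p = 4.35e-04). The call held in all but 1 of 10 alternatives, the exception being a pseudocount of 0.1 RPKM (adjusted p = 0.0561). Neither setting had overlapping groups, which was so for 64.9% and 61.6% of tested genes.

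In c-Kit-high cells Ccl2 was at or near the limit of detection. Deleted libraries were listed at 0, against 0.17 and 0 RPKM in controls, with a log2 difference of -0.11 ± 0.27 (SE; limma adjusted p = 0.824). Pre-B libraries had 0.17 and 0 RPKM. In pre-pro-B cells Ccl2 did not reach the filter of 1 RPKM in 2 libraries and was not tested. The highest value was 0.90 RPKM with Ik4056, where it was above both control constructs in 4 of 4 runs, on 3 to 17 reads, although in 1 of these runs it and the empty vector had 3 reads each; with Ik2709 it was above both in 1 of 4 runs. Control cells differed too: against pro-B controls the log2 difference was -4.07 ± 0.27 in c-Kit-high controls (SE; adjusted p = 7.05e-07) and -2.10 ± 0.27 in Rag2-null controls (SE; adjusted p = 1.91e-04).

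Markers of other cells moved beside Ccl2. The fixed list of 8 stromal and osteoblast markers summed to 28.1 and 34.0 RPKM in deleted pro-B libraries, against 170.0 and 220.2 RPKM in controls, with 2 of 8 at 0 in every one of these libraries. Of 6 tested, 3 fell, the collagen chain genes Col1a2 and Col3a1 and the alkaline phosphatase gene Alpl, by log2 differences of -1.66, -1.202 and -3.77. Alpl alone had 11.7 and 6.21 RPKM after deletion, against 119.9 and 140.3 RPKM in controls. Left out after its values were seen, the other 7 markers summed to 22.3 and 21.9 RPKM in deleted cells, against 50.1 and 79.9 RPKM in controls. In Rag2-null cells the full list of 8 summed to 138.8 and 154.6 RPKM in deleted libraries, against 101.6 and 228.6 RPKM in controls, and overlapped; without Alpl, at 89.4 and 114.6 RPKM against 94.9 and 216.1 RPKM, the other 7 summed to 49.4 and 40.0 RPKM after deletion, against 6.64 and 12.5 RPKM in controls, and 3 of 6 tested rose: Col1a1, Col1a2 and Col3a1. In c-Kit-high cells the full list summed to 10.9 to 14.5 RPKM after deletion, against 21.7 to 32.0 RPKM in controls, and 0 of 6 tested were called. Without Alpl the sums were 3.83 and 1.88 RPKM after deletion, against 1.64 and 11.3 RPKM in controls. The full list thus moved with Ccl2 in pro-B cells but overlapped in Rag2-null cells. In c-Kit-high cells it was lower after deletion, although Ccl2 was near the limit of detection on both sides. The list without Alpl differed in the same direction as Ccl2 in pro-B and Rag2-null cells and overlapped in c-Kit-high cells. Of all tested genes, 9.89% fell in deleted pro-B cells and 15.5% rose in deleted Rag2-null cells. The part of these markers in the result was not tested.

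Ccl5, the T-cell chemoattractant RANTES, was low in pro-B cells and highest in pre-B cells. Pre-B libraries had 11.5 and 10.7 RPKM of Ccl5, against 0.18 and 0.81 RPKM in c-Kit-high controls, a log2 difference of 3.05 ± 0.21 (SE; limma adjusted p = 2.41e-07). In this fit Ccl5 reached 1 RPKM only in the pre-B libraries and in Rag2-null control replicate 1. It would not have passed the filter without the pre-B libraries. The pre-B call held in all 10 alternatives, among them a fit without the filter. Deleted pro-B libraries were listed at 0, against 0.49 and 0.37 RPKM in controls, which rest on 3 and 2 reads. That difference of -0.51 ± 0.21 (SE) did not pass the test (limma adjusted p = 0.1), although it did with a pseudocount of 0.1 RPKM (adjusted p = 0.00611). Deleted c-Kit-high libraries had 0.40 and 0.27 RPKM, against 0.18 and 0.81 RPKM in controls, and overlapped (adjusted p = 0.726).

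In Rag2-null cells Ccl5 fell slightly. It had 0.44 and 0.22 RPKM after deletion, about 8 and 4 reads, against 1.38 and 0.91 RPKM in controls, about 22 and 13 reads. The log2 difference of -0.68 ± 0.21 (SE; limma adjusted p = 0.0334) was lost in 6 of 9 alternatives, among them the fits without control replicate 1 (adjusted p = 0.177), without deleted replicate 1 (0.0688) and without deleted replicate 2 (0.207). Rag2-null controls were above pro-B controls by 0.58 ± 0.21 (SE; adjusted p = 0.0503); this passed without Rag2-null control replicate 2 (0.0468), with quantile-normalized values (0.00957) and with median-ratio scaling (0.0247). In pre-pro-B cells Ccl5 had 4.31, 1.10, 7.26 and 1.69 RPKM with Ik4056 and 2.85, 1.70, 4.97 and 2.19 RPKM with Ik2709, against 4.05, 2.63, 3.93 and 3.00 RPKM with Ren713 and 3.36, 4.61, 3.17 and 2.09 RPKM with the empty vector. These overlapped and differed by -0.15 ± 0.25 (SE; adjusted p = 0.771). Control pre-pro-B cells had more Ccl5 than control pro-B cells, by 1.59 ± 0.34 (SE; adjusted p = 4.03e-04).

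Ccl9, a Ccr1 ligand made by myeloid cells, rose with the hairpins and was not called in any of the 3 deletions, where it stayed under 1 RPKM. Levels were 11.5, 5.78, 9.93 and 5.22 RPKM with Ik4056 and 11.9, 10.5, 12.02 and 9.27 RPKM with Ik2709, against 4.24, 2.51, 1.76 and 1.19 RPKM with Ren713 and 4.24, 3.40, 2.51 and 1.42 RPKM with the empty vector. No hairpin library overlapped with a control library, which was so for 7.06% of tested genes, and both hairpins were above both control constructs in 4 of 4 runs. The log2 difference was 1.54 ± 0.21 (SE; limma adjusted p = 4.58e-05). Between the hairpins it was -0.44 ± 0.29 (SE; adjusted p = 0.733). In pro-B cells Ccl9 stayed under 1 RPKM in all 12 libraries, at 0.06 to 0.50 RPKM after deletion and 0.14 to 0.78 RPKM in controls, and no deletion passed the test (adjusted p = 0.240, 0.946 and 0.908 for pro-B, c-Kit-high and Rag2-null cells). It reached the filter of that fit only through the pre-B libraries. At such low levels values of log2(RPKM + 1) can differ little, so the deletion tests give no contrast with the hairpins. Whether the hairpin effect differs from those of the deletions was not tested.

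Pre-B libraries had 3.59 and 3.71 RPKM of Ccl9, against 0.78 and 0.14 RPKM in c-Kit-high controls, a rise of 1.71 ± 0.22 on the log2 scale (SE; limma adjusted p = 3.91e-05). Ccl9 entered this fit only through the pre-B libraries, the group in which it was high. Without either control library the call held (log2 difference 1.39 at the lowest), and without either pre-B library Ccl9 no longer reached the filter and was not tested. Of the 6 genes, 2 were higher and 2 lower in pre-B cells than in c-Kit-high controls, where 49.0% of all tested genes were called, 19.2% higher and 29.8% lower. In c-Kit-high against pro-B controls 1 was higher and 2 lower, with 50.8% of all genes called, 27.8% higher and 23.0% lower. In Rag2-null against pro-B controls 2 of 6 were lower, with 31.6% of all genes called, 10.9% higher and 20.7% lower. In control pre-pro-B against control pro-B cells 3 were higher and 2 lower, with 55.5% of all genes called, 25.3% higher and 30.1% lower. With so many of all genes called between these kinds of cell, such counts are not particular to these genes. Control pre-pro-B cells were above control pro-B cells in Ccl9 by 1.17 ± 0.28 on the log2 scale (SE; adjusted p = 0.00137), and differed in Ccl2 by -3.89 ± 0.19 (SE; adjusted p = 3.16e-14).

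Myeloid markers were high in pre-B and hairpin libraries, where Ccl9 was also highest. Ccl5 did not follow them throughout. It had means of 3.40 RPKM with Ren713 and 3.31 RPKM with the empty vector, where monocyte and macrophage markers were low, and of 0.335 RPKM in deleted c-Kit-high cells, where they were at 159.8 and 171.3 RPKM. A list of 12 NK and T-cell markers summed to 51.2 to 120.5 RPKM with the control constructs and 27.3 to 30.1 RPKM in pre-B libraries. It summed to 2.42 to 2.72 RPKM in pro-B controls and 12.1 to 26.6 RPKM in deleted c-Kit-high cells. In deleted pro-B cells, where Ccl5 was listed at 0, it summed to 18.8 to 20.3 RPKM. The pre-B libraries had summed neutrophil and precursor markers of 7944 and 8267 RPKM and monocyte and macrophage markers of 674.4 and 848.3 RPKM, against 114.2 to 708.2 RPKM and 89.4 to 132.3 RPKM in c-Kit-high controls. No marker of either list was at 0 in pre-B libraries. With the hairpins, monocyte and macrophage markers summed to 151.1 to 255.0 RPKM, against 17.9 to 27.5 RPKM with the control constructs; 9 of 11 tested rose and 1 fell, and 2 to 3 of 15 were at 0 with the hairpins, against 3 to 4 of 15. Neutrophil and precursor markers summed to 536.1 to 1365 RPKM with the hairpins, against 30.3 to 125.6 RPKM, and all 5 tested rose, although 5 to 7 of 12 were at 0 with the hairpins. Of all tested genes, 13.4% rose and 6.04% fell with the hairpins. Prtn3, the proteinase of granule precursors, made up 331.4 to 1061 RPKM with the hairpins, against 3.96 to 26.9 RPKM. The part of these cells or programmes in the levels of Ccl3, Ccl4, Ccl5 and Ccl9 was not tested.

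**Figure D4:**
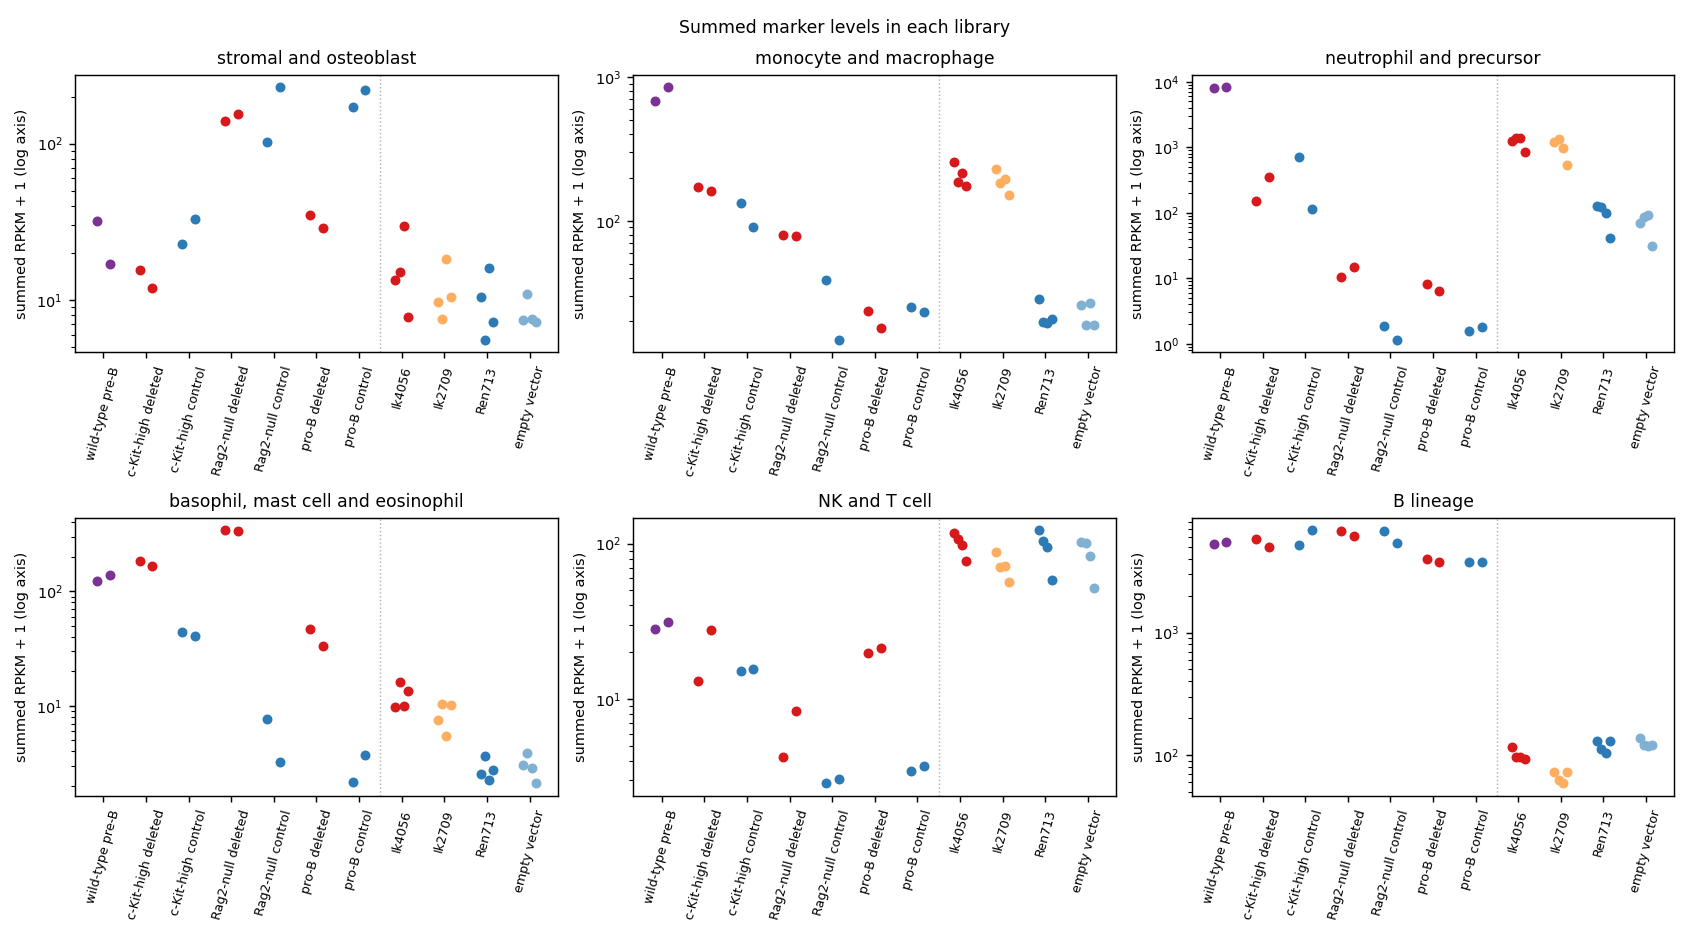
Summed RPKM of 6 marker lists in each of the 30 libraries, on a log axis after adding 1; deleted and hairpin libraries stand left of their controls, and the dotted line parts pro-B and pre-B from pre-pro-B libraries. Stromal markers are high in pro-B controls at 170.0 and 220.2 RPKM, and neutrophil markers are highest in pre-B libraries at 7944 and 8267 RPKM.

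Where Spp1 and Ccl3 rose in pro-B cells, most myeloid markers stayed low. In deleted pro-B libraries monocyte and macrophage markers summed to 17.1 and 22.6 RPKM, against 22.2 and 24.2 RPKM in controls, with 4 to 6 of 15 at 0 after deletion. Of 14 tested, the receptor gene Csf1r rose, the lysozyme gene Lyz2 fell, and the complement genes C1qa, C1qb and C1qc did not differ (log2 difference 0.00 each). Neutrophil markers summed to 5.32 and 7.19 RPKM after deletion, against 0.58 and 0.82 RPKM, and without Prtn3 to 0.50 and 0.97 RPKM, against 0.40 and 0.72 RPKM. Prg3, an eosinophil granule protein gene singled out after its values were seen, had 45.9 and 32.4 RPKM after deletion, against 0.54 and 1.74 RPKM in controls. The other 8 markers of its list of basophil, mast cell and eosinophil genes summed to 0 and 0.19 RPKM in the same deleted libraries. With Prg3, this list summed to 338.3 to 339.2 RPKM in deleted Rag2-null cells, against 2.23 to 6.63 RPKM in controls. In deleted c-Kit-high cells it summed to 166.0 to 182.1 RPKM, against 39.9 to 42.9 RPKM. Without Prg3 the deleted libraries had 2.82 to 4.08 RPKM in Rag2-null and 10.5 to 13.3 RPKM in c-Kit-high cells. NK and T-cell markers summed to 18.8 and 20.3 RPKM, against 2.42 and 2.72 RPKM, with 10 to 11 of 12 at 0 in deleted cells; Nkg7, a granule gene, was the 1 of 7 tested that rose. In deleted Rag2-null cells monocyte and macrophage markers rose to 77.0 and 78.3 RPKM, against 13.9 and 37.8 RPKM, with 7 of 14 tested called higher. In c-Kit-high cells they were at 159.8 and 171.3 RPKM after deletion, against 89.4 and 132.3 RPKM, with 4 of 14 higher and 1 lower. Of the 10 B-lineage markers 2 rose and 5 fell in deleted pro-B cells, 0 rose and 2 fell in c-Kit-high cells and 1 rose in Rag2-null cells; with the hairpins 3 of 6 tested rose and 2 fell. The shares of all tested genes called in these settings were 23.4%, 17.2%, 22.3% and 19.4%, in the same order. The part of any of these markers in the levels of Spp1, Ccl3 and Ccl4 was not tested.

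The deletion effects themselves differed between settings. Against intact pro-B cells, the effect in Rag2-null cells differed for 4 of the 6 genes, where 13.1% of all genes differed, 8.54% upwards and 4.55% downwards. It was more positive for Ccl2 by 5.17 ± 0.38 on the log2 scale (SE; limma adjusted p = 1.47e-05), and less positive for Ccl3 by -3.81 ± 0.40 (SE; adjusted p = 1.15e-04), for Spp1 by -3.22 ± 0.33 (SE; adjusted p = 1.05e-04) and for Ccl4 by -2.49 ± 0.48 (SE; adjusted p = 0.00475). Against total pro-B cells, the effect in c-Kit-high cells differed for 3 of the 6 genes, where 6.70% of all genes differed, 4.54% upwards and 2.16% downwards. It was more positive for Ccl2 by 3.27 ± 0.38 (SE; adjusted p = 6.30e-04) and less positive for Ccl3 by -2.997 ± 0.40 (SE; adjusted p = 0.00135) and Ccl4 by -2.36 ± 0.48 (SE; adjusted p = 0.0132). The Ccl4 difference was lost without pro-B control replicate 2 (adjusted p = 0.0559), without deleted pro-B replicate 2 (0.0649) and without deleted c-Kit-high replicate 2 (0.0546). For Spp1 the c-Kit-high difference of -1.07 ± 0.33 (SE) did not pass (adjusted p = 0.0750), and was -1.49 (adjusted p = 0.0155) without pro-B control replicate 2. With a pseudocount of 0.1 RPKM both Ccl3 differences of effect were lost (adjusted p = 0.0614 for Rag2-null and 0.121 for c-Kit-high cells), and without a filter on low values both Ccl4 ones (0.0521 and 0.0895). The settings share the deleted and control pro-B libraries, so these differences are not independent of each other. Rag2-null libraries also had other library numbers and greater depth than intact pro-B libraries, and Rag2 cannot be told apart from these.

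Other chemokine ligands and the receptors were read from lists chosen with earlier results known. Of 35 other chemokine ligand genes, 30 matched a gene model, and 11 could be tested in pro-B cells and 5 in pre-pro-B cells. In deleted pro-B cells 3 rose and 4 fell, in c-Kit-high cells 1 rose, in Rag2-null cells 4 rose, and with the hairpins 2 rose; none fell in the last 3 settings. Their median log2 differences were 0.00, 0.00, 0.12 and 0.41; of all tested genes 23.4%, 17.2%, 22.3% and 19.4% were called in the 4 settings. Cx3cl1, a membrane-bound ligand for Cx3cr1, rose in all 4 settings. It had 2.88 and 4.52 RPKM in deleted pro-B cells, against 1.07 and 2.27 RPKM in controls, and the log2 difference of 0.83 (limma adjusted p = 0.0261) was lost without control replicate 1 (log2 difference 0.50) and without deleted replicate 1 (0.57). In c-Kit-high cells it had 8.35 and 10.0 RPKM after deletion and was listed at 0 in controls (log2 difference 3.34), and in Rag2-null cells 17.1 and 23.1 RPKM, against 0.48 and 0.50 RPKM (3.81). Pf4, a platelet chemokine, rose by 3.50 in Rag2-null cells, by 0.94 with the hairpins and by 1.77 in pro-B cells, the last lost without control replicate 1 (adjusted p = 0.0756) and without deleted replicate 1 (0.0987). In c-Kit-high cells its log2 difference was 1.117 (adjusted p = 0.0987), and 1.67 (adjusted p = 0.0357) without control replicate 2.

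Among the ligands that fell in pro-B cells, Ccl7, the neighbour of Ccl2 on chromosome 11 and a ligand of Ccr2, had 0.20 and 0.22 RPKM after deletion, against 7.46 and 9.16 RPKM in controls, a log2 difference of -2.94 (limma adjusted p = 1.29e-07). In Rag2-null cells it had 1.07 and 1.15 RPKM, against 1.47 and 1.63 RPKM (adjusted p = 0.232, but 0.0134 with quantile-normalized values), so there it did not follow the rise of Ccl2. Cxcl12, the stromal factor that retains B-cell precursors, fell by 1.85 in deleted pro-B cells (adjusted p = 0.00124) and rose by 2.52 in deleted Rag2-null cells (adjusted p = 1.43e-04), in the same directions as Ccl2. Its levels were 9.60 and 9.89 RPKM after deletion, against 31.2 and 45.3 RPKM in pro-B controls, and 17.6 and 34.3 RPKM after deletion, against 2.23 and 5.20 RPKM in Rag2-null controls. Cxcl1, a neutrophil attractant, fell by 2.44 in pro-B cells (adjusted p = 1.83e-05), with 0 and 0.51 RPKM after deletion, against 4.00 and 7.91 RPKM.

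**Figure D5:**
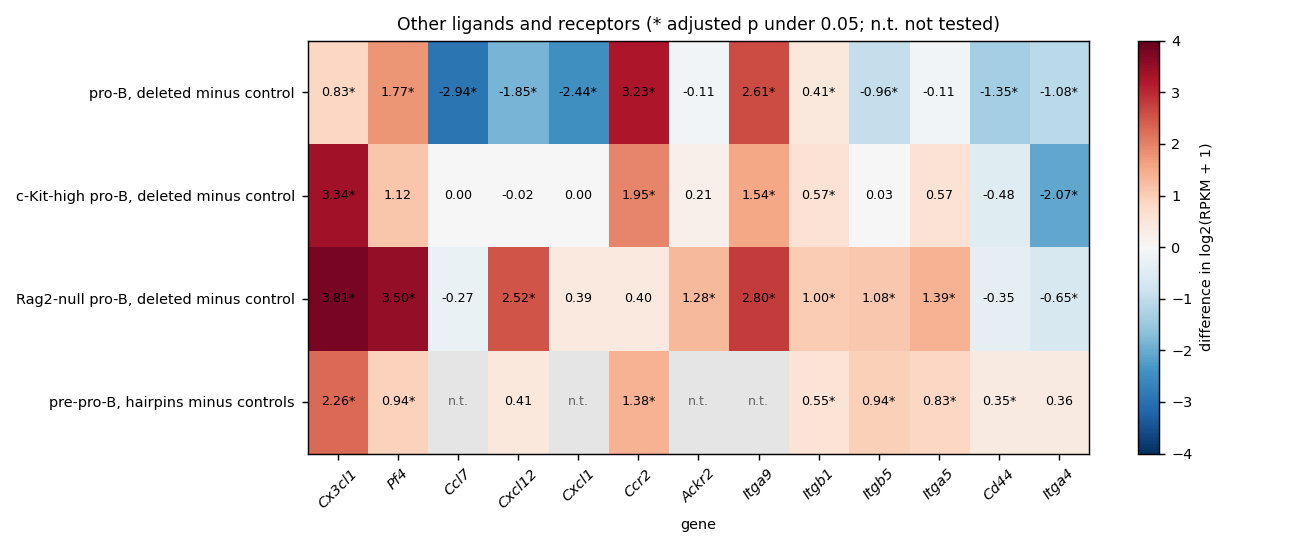
Differences in log2(RPKM + 1) for other ligands and receptors, as deleted minus control or hairpin minus control construct; red is higher and blue lower after loss of Ikaros, stars mark an adjusted p under 0.05, and n.t. marks genes below the filter. Cx3cl1 is starred in all 4 rows, and Ccl7, Cxcl12 and Cxcl1 are blue in pro-B cells at -2.94, -1.85 and -2.44.

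Of 8 receptors that bind the 5 chemokines, 3 could be tested in pro-B cells. Ccr2, the receptor of Ccl2 and Ccl7, had 9.31 and 13.1 RPKM in deleted pro-B cells, against 0.05 and 0.57 RPKM in controls, a rise of 3.23 on the log2 scale (limma adjusted p = 4.10e-04). With the hairpins it had 2.25 to 4.09 RPKM, against 0.15 to 0.86 RPKM, a rise of 1.38 (adjusted p = 4.49e-07). Ccr2 passed the filter of that fit only through the hairpin libraries. In c-Kit-high cells it rose by 1.95 (adjusted p = 0.0127), which was lost without deleted replicate 2 (0.0993) and without control replicate 2 (0.0592). In Rag2-null cells the log2 difference was 0.40 (adjusted p = 0.610). The decoy receptor gene Ackr2 rose by 1.28 in Rag2-null cells (adjusted p = 2.81e-04).

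Of 9 genes for osteopontin receptors, 8 could be tested in pro-B cells. In deleted pro-B cells 2 rose and 3 fell, in c-Kit-high cells 2 rose and 1 fell, and in Rag2-null cells 4 rose and 1 fell; with the hairpins 4 of 7 rose and 0 fell. The shares of all tested genes called in these settings were 23.4%, 17.2%, 22.3% and 19.4%. Itga9, an integrin chain that binds a cleaved form of osteopontin, rose in all 3 deletions, with log2 differences of 2.61, 1.54 and 2.80 for pro-B, c-Kit-high and Rag2-null cells (highest limma adjusted p = 2.39e-04). In pro-B cells its levels were 6.18 and 6.66 RPKM after deletion, against 0.19 and 0.23 RPKM. Itga4 fell in the same 3 deletions, with log2 differences of -1.08, -2.07 and -0.65, the last (adjusted p = 0.0311) lost without either control library (0.0752 and 0.107) and without deleted replicate 1 (0.216). With the hairpins Itga4 differed by 0.36 (adjusted p = 0.290; 3.89e-04 with the library run as a block). Itgb1, the partner chain of both, rose by 0.41, 0.57 and 1.00 in the 3 deletions and by 0.55 with the hairpins; the pro-B call (adjusted p = 0.0381) was lost without each library in turn, and the c-Kit-high call without deleted replicate 1 (0.0535) and without control replicate 2 (0.0702). Itgb5 fell by 0.96 in pro-B cells and rose by 1.08 in Rag2-null cells and by 0.94 with the hairpins; with Ik4056 alone the difference was 0.42 and not called (adjusted p = 0.188). For Itgb1 the hairpin call was lost with Ik2709 alone (0.0684). Itga5 rose by 1.39 in Rag2-null cells and by 0.83 with the hairpins, and Cd44 fell by 1.35 in pro-B cells and rose by 0.35 with the hairpins. The 4 other genes of the bone matrix family of Spp1, the SIBLING genes Ibsp, Dmp1, Dspp and Mepe, did not reach the filter in either fit.

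Of 15 genes for regulators of activation, such as the NF-kB and AP-1 subunits, 14 could be tested. In deleted pro-B cells 3 rose and 2 fell, in c-Kit-high cells 0 rose and 2 fell, in Rag2-null cells 4 rose and 1 fell, and with the hairpins 4 rose and 1 fell. Of 8 genes for MAF, C/EBP and other myeloid regulators, 2 of 7 tested rose and 1 fell in deleted pro-B cells, 3 rose in c-Kit-high cells, 3 rose in Rag2-null cells, and 5 of 6 tested rose with the hairpins. Of all tested genes, 23.4%, 17.2%, 22.3% and 19.4% were called in these 4 settings, and no result about the activation list is read from counts of 2 to 5 of 14.

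Genes whose log2 levels were most like those of each member were taken by Pearson's r, as a description over libraries that share groups. Over the 14 pro-B and pre-B libraries, Spp1 was most like Fgfr2 (r = 0.98), Tead1 (0.98) and Vash1 (0.97), and Ccl3 most like Napepld (0.97), Tgfa (0.96) and Man1c1 (0.95). Ccl4 was most like Pdcd1 (0.94), Spa17 (0.94) and Tiam2 (0.93), and Ccl2 most like Fetub (0.95), Cpe (0.94) and Gas1 (0.94). For Ccl5 the nearest were Akirin1, Colgalt1 and Cmtm6 (0.97 each), and for Ccl9 Emilin2 (0.98), Sqor (0.97) and Pilra (0.97). Over the 16 pre-pro-B libraries, Ccl9 was most like Mpeg1 (0.97), Dhrs7 and Cyp4f18, Ccl3 most like Oasl2 (0.96) and Bcl6, and Ccl4 most like Dusp27 (0.98), Sorbs3 and Oasl2. The closest genes to Ccl5 and Spp1 there reached no more than 0.74 for Tyrobp and 0.87 for Mtdh. Among the members, Ccl3 and Spp1 had an r of 0.86 over pro-B and pre-B libraries but of 0.23 over pre-pro-B libraries, and Ccl5 and Ccl9 had 0.905 over the pro-B and pre-B libraries, where both are highest in pre-B cells, but 0.125 in pre-pro-B libraries.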

How the data were processed

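RNA libraries were strand-specific and single-end, from polyadenylated RNA, per the labels' protocols. The authors deposited RPKM for 21025 gene models; TopHat 1.4.1, HTSeq 0.5.3, DESeq 1.8.3 and mm9 are named in the submitters' processing notes, and their roles are not given in the sources used for this work. The 18 chromatin libraries were not analysed here. Current symbols came from RefSeq (20661 models matched).

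The members, lists and alternatives were chosen with earlier results of these data known. Differences were tested with limma 3.58.1 (R 4.3.3), with trend and robust moderation, on log2(RPKM + 1), which understates changes of low genes. Tests were two-sided, with Benjamini-Hochberg adjustment over all genes with at least 1 RPKM in at least 2 libraries of the fit: 11937 genes in 14 pro-B and pre-B libraries, 10744 in 16 pre-pro-B libraries and 12272 in all 30. The fit was tested on simulated data. Python 3.11.15, pandas 2.3.3, numpy 2.4.6 and matplotlib 3.10.9 made tables and plots.

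In 26 libraries the deposited RPKM of low genes follow whole multiples of 1 read, and the 12 lowest values of each member came out whole within 0.1 read, which gave the implied reads; 4 libraries followed no single step, and no reads are given for them. Reads are not independent molecules, so counting limits cover counting error only. None of 435 library pairs was identical; r between libraries of a group was 0.981 to 0.996 across genes.

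The 4 pre-pro-B libraries of consecutive numbers form a run. Deviations from group means correlated in all 24 same-run pairs (lowest r 0.52, median 0.77), against a median of -0.22 between runs, and each of 16 libraries was most like one of its own run, so the runs pair these libraries. Named genes are the members, Ikzf1, the 3 genes most like each member among those with a mean of at least 3 RPKM in their highest group, called receptors, and up to 5 other called chemokine ligands with the largest fold; marker genes named beside a count were added after their values were seen. Some genes under this rule are not reported here.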

Additional observations from a re-analysis of the deposited data

Results flagged for a closer look

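In 2 of 24 groups of 4 libraries, 1 library lay far from the others; chance gives about 1 in 20 groups. Ccl4 was at 6.94 RPKM in Ik4056 replicate 1, against 2.26 to 2.65 RPKM in the other 3 libraries, and at 0.11 RPKM in empty-vector replicate 4, against 0.42 to 0.43 RPKM. The value of 0.11 RPKM rests on 2 reads.

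In 7 of 12 tests the deletion effect on a gene differed between settings. The differences of effect, Rag2-null minus Rag2-intact pro-B cells, were 5.17 for Ccl2, -3.81 for Ccl3, -2.49 for Ccl4 and -3.22 for Spp1 on the log2 scale, and c-Kit-high minus total pro-B cells 3.27 for Ccl2, -2.997 for Ccl3 and -2.36 for Ccl4. In c-Kit-high cells Ccl2 was at 0 to 0.17 RPKM on both sides, so its difference of effect is the fall in pro-B cells.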

How the results depend on the processing

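Over 121 gene results, 1453 of 1541 alternatives kept the direction and side of the threshold, 69 lost a call and 19 gained one; no called direction turned. In deleted Rag2-null cells the 4 members called became 2 with a pseudocount of 0.1 RPKM, 2 without a filter on low values and 2 when 1 fit held all 30 libraries, and 2 to 3 when each library was left out. Between pre-B and c-Kit-high control cells the 4 became 2 without a filter and 2 after quantile normalization, and 1 to 4 when each library was left out, the lowest without pre-B replicate 1; without either pre-B library Ccl9 no longer reached the filter and was not tested. The other causes were not tested.

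With the library run as a replicate block, 1 of 5 members, Ccl4, differed between the hairpins, in place of 0, and Spp1 passed for the hairpins against controls; no other member's call changed. The genes called for the hairpins numbered 5575 with the block, against 2086 without; with Ik2709 alone there were 1254. Leaving out a library gave 1688 to 1915 genes for the pro-B deletion, against 2791, 1322 to 2117 for c-Kit-high cells, against 2049, and 1577 to 2509 for Rag2-null cells, against 2667. Fits of the 4 compared libraries gave 1350 for c-Kit-high and 1547 for Rag2-null cells, and 949 for the c-Kit-high libraries of consecutive numbers. The labels give no shared replicate numbers for pro-B libraries.

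Quantile normalization and median-ratio scaling shifted the median of all genes by -0.13 and -0.10 on the log2 scale for the Rag2-null deletion and by 0.12 and 0.15 for pre-B cells against c-Kit-high controls; median-ratio scaling shifted it by 0.10 for Rag2-null controls. The share of calls that were higher was 51.5% and 48.5%, against 57.7% as deposited, for the pro-B deletion, a balance that turns to more genes lower with median-ratio scaling; 51.7% and 56.9%, against 67.4%, for the c-Kit-high deletion; 57.9% and 50.5%, against 69.4%, for the Rag2-null deletion; 52.5% and 56.8%, against 68.9%, for the hairpins; 50.4% and 52.9%, against 39.1%, for pre-B cells; 45% and 53.9%, against 34.4%, for Rag2-null controls; and 62.6% and 71.4%, against 78.8%, between the hairpins.

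Depth limits c-Kit-high control replicate 2, where 3 reads are 1.60 to 2.43 RPKM of Ccl2 to Ccl5.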
